A study of Homo sapiens with 12 samples.

Results

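In KO-52 cells, 1698 chromatin regions had an ATAC-seq peak after tunicamycin in p30-expressing and in empty vector (EV) cells, had none in either of these lines in DMSO, and had a peak in p42-expressing cells in both states. They were chosen by their peak calls alone, from the 355051 regions on chromosomes 1 to 22 and X obtained by merging the peaks of 6 lists that shared at least 1 bp, and they make up 0.478% of them. A region was kept where the lists of p42 cells in DMSO, p42 cells after tunicamycin, p30 cells after tunicamycin and EV cells after tunicamycin held a peak and the DMSO lists of p30 and EV cells did not. Since the calls define the set, their heights are given below as a description, and only features outside the rule (sequence and position) are set against other regions.

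ATAC-seq uses the Tn5 transposase to tag accessible DNA. KO-52 is an AML cell line that carries mutations in both CEBPA alleles, and this background is shared by all lines compared here. Cells had been transduced to express p42 or p30, EV cells carried the vector alone, and each line was kept in DMSO or treated with tunicamycin at 2 µg/mL for 8 h. By the paper's methods, transduced KO-52 cells received p42 or p30 fused to ERT2, which enters the nucleus with hydroxytamoxifen. Fusion lines and EV controls were given it before experiments, which the sample titles do not name. The paper describes AML cells with both alleles mutated as typically expressing p30 only, so EV cells are not taken to lack it. There were 2 replicates of 50000 nuclei in each of 6 conditions, which gave 12 libraries. The authors called the peak lists used here on pooled replicates, so each condition is 1 sample, no value has a replicate spread and no test between conditions could be made. Each 95% interval reflects only how many regions were counted and is not adjusted for the number of comparisons.

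CEBPA encodes a basic leucine zipper transcription factor of myeloid differentiation. Its full-length form is p42, and p30 is a shorter form that lacks transactivation domains of the N-terminal region, while both keep the DNA-binding domain. C/EBP dimers bind a palindrome. C/EBP proteins can also pair with ATF4, a factor translated when the integrated stress response is active, on a composite element that joins a C/EBP recognition site with an ATF site. Tunicamycin blocks N-linked glycosylation in the endoplasmic reticulum (ER), so that misfolded proteins activate the unfolded protein response sensors, one of which, PERK, leads to ATF4 translation. AP-1 factors such as FOS and JUN bind a different, shorter element.

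The C/EBP-ATF composite element, searched as TGATGCAA on both strands within 100 bp of the summit, was matched for 97 of the 1698 members. That window can reach past the ends of a member, whose median width was 157 bp. Here and below, an element said to lie in a region, or to be held by it, is a match in the window. It is not always inside the region. The sequences below, from the hg38 reference and read 5′ to 3′ on the strand of the match, show it in capitals with 40 bases on each side. The members near VNN2, PLEK and RTN3 are the 3 highest that hold it, ranked by the lowest percentile of −log10 q that a member has over its 4 lists. Those near HSPA5, which encodes the ER chaperone BiP, and SESN2, a stress-induced sestrin gene, were taken after their values were seen, because they lie near genes of the stress lists described below.
VNN2 C/EBP-ATF (chr6:132749210-132749297, plus strand): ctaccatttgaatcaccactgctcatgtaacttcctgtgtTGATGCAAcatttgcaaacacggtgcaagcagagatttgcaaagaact
PLEK C/EBP-ATF (chr2:68420421-68420508, minus strand): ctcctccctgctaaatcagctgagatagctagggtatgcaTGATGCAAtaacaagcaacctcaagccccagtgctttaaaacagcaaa
RTN3 C/EBP-ATF (chr11:63689401-63689488, minus strand): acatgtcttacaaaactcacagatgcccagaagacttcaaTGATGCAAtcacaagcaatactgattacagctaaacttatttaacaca
HSPA5 C/EBP-ATF (chr9:125243430-125243517, minus strand): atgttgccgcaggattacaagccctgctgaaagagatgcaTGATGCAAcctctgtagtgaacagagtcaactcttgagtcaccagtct
SESN2 C/EBP-ATF (chr1:28249551-28249638, plus strand): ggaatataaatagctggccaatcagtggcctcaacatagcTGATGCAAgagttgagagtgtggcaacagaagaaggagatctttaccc

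The C/EBP palindrome, searched as TTGCGCAA or the near-palindromic TTGCACAA, and the C/EBP-AP-1 composite, searched as TGTTGCAA, are the other elements with a C/EBP site. For each, the 3 highest members outside untranslated regions and outside 1 chromosome left out of the printed sequences are shown in the same way. The matches printed for C3orf80 and OR8G3P fall outside the members themselves, within the window around the summit. The members near BBC3, which encodes the pro-apoptotic protein PUMA, and IL1RN, which encodes the interleukin 1 receptor antagonist, were added after their values were seen as the list genes with this composite.
TAGAP C/EBP (chr6:159084583-159084670, minus strand): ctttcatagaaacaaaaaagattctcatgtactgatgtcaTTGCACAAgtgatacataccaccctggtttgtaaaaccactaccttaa
C3orf80 C/EBP (chr3:160210388-160210475, minus strand): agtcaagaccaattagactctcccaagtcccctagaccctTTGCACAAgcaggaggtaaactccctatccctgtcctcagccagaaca
OR8G3P C/EBP (chr11:124215216-124215303, minus strand): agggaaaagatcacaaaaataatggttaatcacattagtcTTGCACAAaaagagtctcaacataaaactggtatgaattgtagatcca
CFL2 C/EBP-AP-1 (chr14:34684721-34684808, minus strand): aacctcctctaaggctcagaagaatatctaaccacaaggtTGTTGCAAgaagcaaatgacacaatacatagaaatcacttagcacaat
AKIRIN2 C/EBP-AP-1 (chr6:87789775-87789862, minus strand): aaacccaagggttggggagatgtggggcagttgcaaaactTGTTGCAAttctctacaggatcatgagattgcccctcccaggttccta
SOX4 C/EBP-AP-1 (chr6:21461965-21462052, plus strand): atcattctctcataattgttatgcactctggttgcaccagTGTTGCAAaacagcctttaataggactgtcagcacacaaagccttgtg
BBC3 C/EBP-AP-1 (chr19:47227965-47228052, minus strand): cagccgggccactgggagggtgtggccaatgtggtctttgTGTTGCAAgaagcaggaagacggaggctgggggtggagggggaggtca
IL1RN C/EBP-AP-1 (chr2:113111995-113112082, plus strand): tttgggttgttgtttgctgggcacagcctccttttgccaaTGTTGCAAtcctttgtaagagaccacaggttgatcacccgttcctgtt

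The AP-1 element without a C/EBP site, TGACTCA, is shown in capitals in members near RTF1 and OR8G5, taken under the same limits.
RTF1 AP-1 (chr15:41477394-41477480, plus strand): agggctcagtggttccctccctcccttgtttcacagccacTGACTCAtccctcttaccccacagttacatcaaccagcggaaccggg
OR8G5 AP-1 (chr11:124249928-124250014, plus strand): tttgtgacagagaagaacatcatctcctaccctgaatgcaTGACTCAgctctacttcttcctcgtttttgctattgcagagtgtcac

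The C/EBP-ATF element set the members apart from most other regions. It was found in 5.71% of them (95% Wilson interval 4.71 to 6.92%) and in 1.23% of all other regions, a difference of 4.48 percentage points (Newcombe interval 3.47 to 5.69) and a ratio of 4.64. When the other regions were weighted to the GC content of the members, an alternative chosen after seeing the data, their share was 1.31% and the ratio 4.35. The presence or absence of a peak in the 6 lists divides all regions into 63 patterns. By the share with this element, the members ranked 2 of 63. Rank 1 was held by the 716 regions gained with tunicamycin in all 3 lines, that is, with a peak in the tunicamycin lists only, of which 6.98% had a match. The difference between the members and these regions was -1.27 points with an interval from -3.6 to 0.771, so it was not resolved at these numbers. Rank 3 was held by the 16258 regions with a peak in both p42 lists and no other, at 3.54%, which was 2.18 points below the members (1.13 to 3.41).

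The other elements with a C/EBP site were also found more often in the members than in the rest, at lower ratios. The C/EBP palindrome lay in 48 members (2.83%, 2.14 to 3.73%) against 1.57% of all other regions, a difference of 1.26 points (0.566 to 2.16). The C/EBP-AP-1 composite lay in 33 members (1.94%, 1.39 to 2.72%) against 1.16%, a difference of 0.783 points (0.225 to 1.56). Both were more frequent still in the regions found in the p42 lists only, at 6.03% and 3.78%, and less frequent in the regions gained in all 3 lines, at 0.698% and 0.559%. The members therefore held the C/EBP-ATF element at a share close to that of the regions gained in every line, and the palindrome and the C/EBP-AP-1 composite at shares between those of the regions gained in every line and those of the p42-only regions. At least 1 of the 3 elements with a C/EBP site lay in 174 members (10.2%, 8.89 to 11.8%) against 3.9% of all other regions.

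The AP-1 element was not more frequent in the members. It lay in 144 of them (8.48%, 7.25 to 9.9%) against 9.49% of all other regions, a difference of -1.01 points with an interval from -2.24 to 0.418. The regions gained in all 3 lines held it more often, at 11.5% (difference -2.97 points, -5.8 to -0.412).

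**Figure D1:**
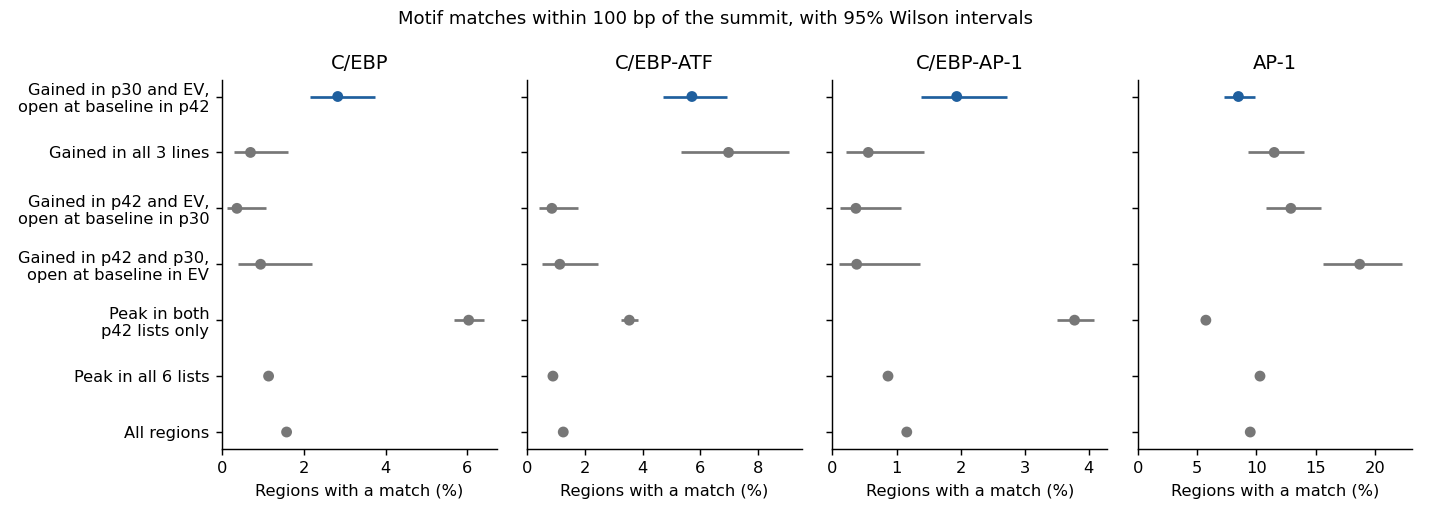
Share of regions with each of 4 elements within 100 bp of the summit (x axis, percent, a separate scale in each panel) in the members (blue) and in 6 other sets (grey). Points are shares and lines 95% Wilson intervals, and the members lie at 5.71% for C/EBP-ATF, near the 6.98% of the regions gained in all 3 lines and above the 1.25% of all regions.

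The same question was asked with the lines exchanged. There were 819 regions gained in p42 and EV cells and open at baseline in p30 cells, and 529 gained in p42 and p30 cells and open at baseline in EV cells. These mirror sets held the C/EBP-ATF element in 0.855% and 1.13% of regions, which was 4.86 points (3.51 to 6.14) and 4.58 points (2.92 to 5.93) below the members. The C/EBP palindrome was found in 0.366% and 0.945% of them. At least 1 of the 3 elements with a C/EBP site lay in 1.59% and 2.46% of the mirror regions. AP-1 was more frequent there than in the members, at 12.9% in the p30 mirror set (difference -4.46 points, -7.23 to -1.9) and at 18.7% in the EV mirror set (-10.2 points, -14 to -6.83).

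Of the 355051 regions, 1.46% (5195) were gained with tunicamycin in both p30 and EV cells. In p42 cells, 1698 of these 5195 had a peak in both lists (32.7%, 31.4 to 34%), 850 in the DMSO list only, 716 in the tunicamycin list only and 1931 in neither. A p42 DMSO peak was present in 49% of the gained regions, against 69.3% of all regions, and the other lines showed the same when exchanged, with a p30 DMSO peak in 40.2% of the regions gained in p42 and EV cells against 56% of all, and an EV DMSO peak in 31.2% against 50.4%. The DMSO calls are part of the rule, so nothing is read from these shares. The C/EBP-ATF element was unequally spread over these 4 groups. It was present in 5.71% of the members and in 6.98% of the regions with a p42 peak after tunicamycin only (5.34 to 9.09%). In the groups without a p42 peak after tunicamycin it was present in 0.824% (0.399 to 1.69%, peak in DMSO only) and in 1.71% (1.22 to 2.39%, no peak). The C/EBP palindrome was found in 2.83% of the members and in 0.621 to 1.06% of the other groups. AP-1 ran the other way, with its highest share, 15.4% (13.9 to 17.1%), in the gained regions without any p42 peak.

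**Figure D2:**
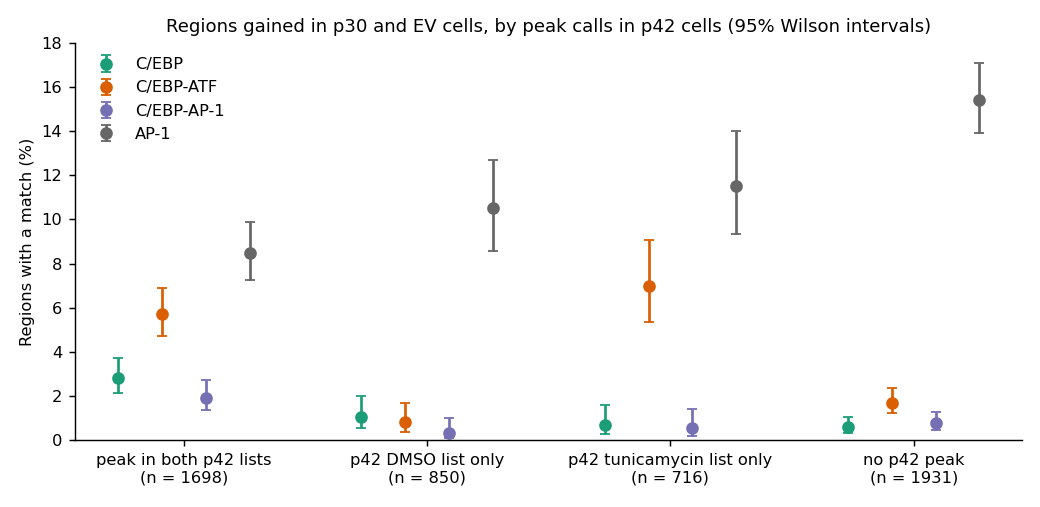
Share of regions with each of 4 elements (y axis, percent) among the 5195 regions gained in p30 and EV cells, split by the peak calls in p42 cells (x axis, with the number of regions). Points are shares and bars 95% Wilson intervals, and the C/EBP-ATF shares of 5.71% and 6.98% belong to the groups with a p42 peak after tunicamycin.

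Regions with a peak in the p42 DMSO list and none in the other DMSO lists made up 21.3% of all regions (75789). The members were 2.24% of them. In the tunicamycin lists, 62.4% of the 75789 had no peak and 21.5% had one in p42 cells only. The p42 DMSO list was the deepest and longest, so weak calls can be missing elsewhere through depth. These shares are not read as loss or retention under tunicamycin.

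The members were regions of low to middle height. The number of tags at each summit, meaning the reads or fragments that the peak caller counted over it, was solved from the deposited fold and p-value of each peak. In the p42 DMSO list the lowest member had 4 tags, the median 9 and the highest 34, and in the p42 tunicamycin list these were 4, 8 and 31. In the p30 tunicamycin list they were 4, 7 and 26, and in the EV tunicamycin list 4, 7 and 29. The median member stood at the 40.7 percentile of the p42 DMSO list by −log10 q, at 31.2 in the p42 tunicamycin list, at 25.1 in p30 and at 24.8 in EV. Members were therefore mostly in the lower part of each list. Percentiles depend on list length and depth, and the p42 DMSO list was the longest, so they are not compared between lines. Scaled to the estimated depth of each list, the median was 7.59 tags in p42 DMSO, 7.67 in p30 tunicamycin and 7.04 in EV tunicamycin. Their median width was 157 bp.

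After scaling on the regions with a peak in all 6 lists, the median members had 8.06 tags in p42 DMSO, 7.91 in p42 tunicamycin, 7.33 in p30 tunicamycin and 7.02 in EV tunicamycin. Paired within members, p42 tunicamycin exceeded p42 DMSO by a median of 0.14 on the log2 scale (quartiles -0.24 to 0.37), and by 0.24 with depth scaling, but by 0 without scaling. Over the 169367 regions with a peak in both p42 lists this median was -0.01, with 0.08 after depth scaling and -0.16 without scaling. Among members, whose peaks in these lists the rule required, the p42 baseline stood close to the stressed state of the other lines. It was 0.06 above p30 tunicamycin and 0.09 above EV tunicamycin, beside -0.0025 and 0.01 over all regions with a peak in both lists. With depth scaling the first was -0.09 for the members and -0.155 over all regions. Across members, heights in the paired p42 lists had a Spearman correlation of 0.614, and those in p30 and EV after tunicamycin 0.532 (n = 1698 regions, which share libraries and base composition).

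**Figure D3:**
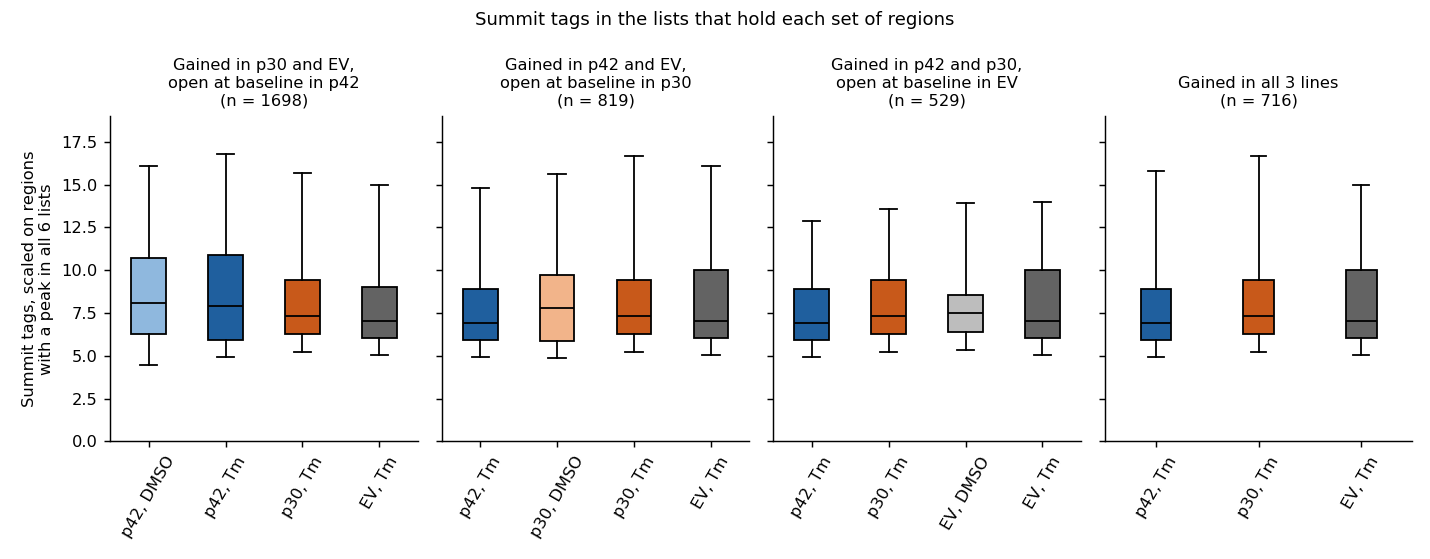
Scaled tags at the summit (y axis) in the lists that hold each set of regions, for the members and for the mirror sets and the regions gained in all 3 lines. Boxes give quartiles with the median, whiskers the 5 to 95 percentiles, and the members' medians lie between 7.02 and 8.06.

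Heights are described next by the element held. Differences between the elements were not tested, since the rule required a peak in these lists and each list pools its replicates. The 97 members with the C/EBP-ATF element had a median of 9 tags in p42 DMSO, 11 in p42 tunicamycin, 8 in p30 tunicamycin and 8 in EV tunicamycin. In p42 cells 71 of the 97 were higher after tunicamycin, with a median difference of 0.26 on the log2 scale (0.35 with depth scaling, 0.12 without scaling). Over all 1698 members 922 were higher. Without scaling, 53 of the 97 and 613 of the 1698 were higher. Of the 48 members with the C/EBP palindrome 22 were higher after tunicamycin, and the median difference was -0.05 (0.04 with depth scaling, -0.20 without scaling, where 10 were higher). Their p42 DMSO heights exceeded those after tunicamycin in p30 cells by a median of 0.38 and in EV cells by 0.34. For the C/EBP-ATF members these differences were -0.03 and 0.06. The 33 C/EBP-AP-1 members had 0.21 in p42 cells after tunicamycin (0.07 without scaling) and 0.36 and 0.42 over p30 and EV cells. The 1396 members with none of the 4 elements had 0.05 in p42 cells after tunicamycin, or -0.10 without scaling. By element, the differences over p30 and EV cells were computed only with scaling on the regions with a peak in every list. Over all 1698 members these differences depended on the scaling. The median over p30 cells was 0.06 with that scaling, -0.09 with depth scaling and 0.29 without scaling. Over EV cells it was 0.09, 0.003 and 0.26.

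The lack of a peak does not show closed chromatin. The floor, the lowest summit called, was 4 tags in each list, and a higher local background needs more. At the scale of the p30 DMSO list, 98.5% of the members' p42 DMSO heights were at or above that floor and 52.5% at or above 8 tags. At the scale of the EV DMSO list these shares were 98.5% and 42.8%. Every member had at least 4 tags in the p42 DMSO list, so the shares at the floor were largely set in advance. They do not show whether a member could have been called in the p30 or EV DMSO list. The p42 DMSO list was also the deepest, at an estimated 29980000 tags against 26530000 for p30 DMSO and 22250000 for EV DMSO, and in the lists as called this depth and the p42 transgene cannot be told apart. With every list cut to an equal number of peaks, 1212 regions met the rule against 911 and 891 for the mirror sets, so the excess over the mirror sets fell from ratios of 2.07 and 3.21 to 1.33 and 1.36. With a threshold scaled to the shallowest list the counts were 1518, 925 and 635. When no p30 or EV DMSO peak was allowed within 500 bp, 1372 regions met the rule.

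**Figure D4:**
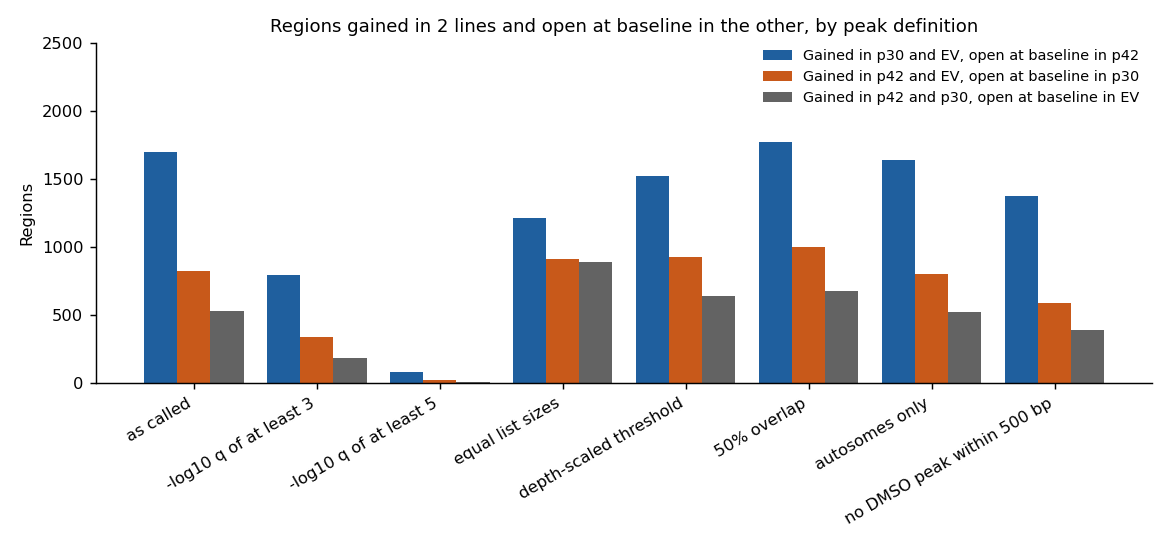
Number of regions (y axis) gained in a pair of lines and open at baseline in the other line, under each definition of a peak (x axis). The members (blue) outnumber both mirror sets under every definition shown, with the lowest ratios at equal list sizes (1212 against 911 and 891).

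Regions at the edge of the rule had −log10 q close to 1.3, the lowest value of the lists. The members chr3:173750188-173750486 and chr11:47716805-47717087 entered with 1.31 in the p42 DMSO list. The regions chr5:3602958-3603175 and chr22:39665259-39665483 were left out by a p30 DMSO peak of 1.31. In all, 4450 regions missed the set only through a p30 DMSO peak and 2385 only through an EV DMSO peak.

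Members were slightly less often near a promoter than other regions. Within 1000 bp of a transcription start lay 216 members (12.7%, 11.2 to 14.4%) against 14.8% of all other regions, a difference of -2.04 points (-3.55 to -0.369). The regions with a peak in all 6 lists were near a start in 23%. Those gained in all 3 lines were near one in 16.8% (difference of the members -4.04 points, -7.31 to -0.985). From the p30 and EV mirror sets the members differed by -2.54 points (-5.57 to 0.301) and 1.57 points (-1.76 to 4.5), which was not resolved. The p42-only regions were near one in 9.28%, which was 3.44 points (1.87 to 5.16) below the members. Summits fell in introns for 59.9% of members, between genes for 32.7% and in exons for 7.42%. The median distance to a start was 11 kb. The median GC content within 100 bp of the summit was 43.8%, against 45.8% for all other regions. The SP/KLF element of CpG-rich promoters, GGGCGGG, was found in 2.36% (1.73 to 3.19%) against 4.56%. Weighted to the members' GC content, the other regions had 2.93%, which lay within that interval. The p30 and EV mirror sets had 2.81% and 3.02%, the regions gained in all 3 lines 2.51% and the p42-only regions 1.81%.

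The 12 members ranked highest by their lowest percentile over the 4 lists were led by regions with the C/EBP-ATF element, which the 4 highest all held and which 5 of the 12 held in all. It was also found in 12 of the 50 highest members and 16 of the 100 highest. The tags given here and for the list genes are not scaled between lists. Rank 1 was an intronic region of VNN2, a vanin gene of neutrophils, at chr6:132749142-132749394. It had 20 tags in p42 DMSO, 26 in p42 tunicamycin, 21 in p30 tunicamycin and 22 in EV tunicamycin, so that the unstressed p42 cells were below the stressed p30 and EV cells. The next, chr2:68420300-68420557, lay 32554 bp downstream of the start of PLEK, which encodes pleckstrin of platelets and leukocytes, and had 25, 24, 26 and 21 tags in the same order. The intronic region of RTN3, which encodes a reticulon of the ER membrane, had 11, 21, 14 and 15 tags, with the p42 value after tunicamycin above the other 3. Upstream of ORM1, which encodes an acute-phase plasma protein, the region chr9:114317867-114318313 had 18, 21, 11 and 12 tags. Both p42 values were above both others here.

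The fifth member with the element lay in an intron of PPARG, a nuclear receptor of lipid metabolism, and had 16 tags in p42 DMSO, 13 in p42 tunicamycin and 10 in each of the other lists. The member with the C/EBP-AP-1 composite downstream of CFL2, which encodes a cofilin, had 20, 16, 13 and 11 tags, with the p42 DMSO value the highest. AP-1 elements were held by the member in LRRC69 (13, 13, 10 and 11 tags) and by that at the promoter of RTF1, which encodes a transcription elongation factor (12, 21, 14 and 10 tags). The remaining members of the 12 held none of these 4 elements. They lay in CACNA1C, a calcium channel gene (16, 23, 18 and 16 tags), in XYLT1, a gene of proteoglycan synthesis (11, 18, 10 and 11), and in the growth factor receptor gene IGF1R (19, 17, 10 and 10). The ITPR1 region, within the gene of an ER calcium release channel, had 16, 26, 23 and 22 tags, and its p42 DMSO value was the lowest of the 4.

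**Figure D5:**
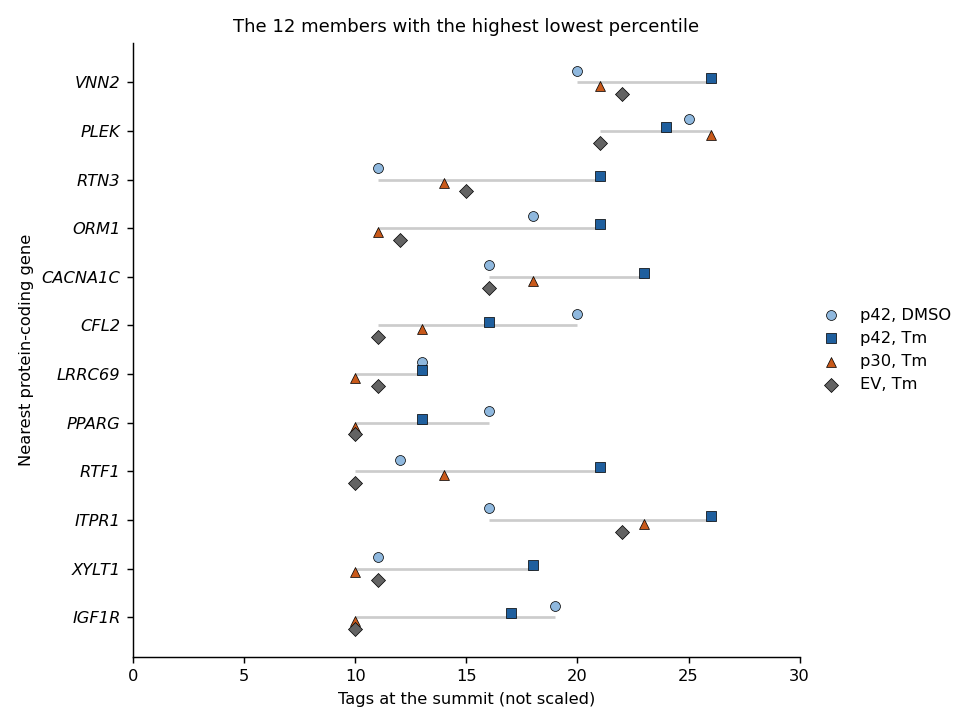
Tags at the summit, not scaled (x axis), in the 4 lists that hold each of the 12 highest members (y axis, nearest protein-coding gene, highest at the top). The 4 upper regions hold the C/EBP-ATF element, and the p42 DMSO value lies below both p30 and EV after tunicamycin in VNN2, RTN3 and ITPR1 (after scaling, in CACNA1C and XYLT1 too).

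Members were next assigned to genes of 6 lists by a distance of up to 50 kb from a transcription start, a distance that does not show which gene a region acts on. Of all protein-coding genes, 9.41% (1878 of 19962) had a member within 50 kb, and of the 130 listed genes 18 did (13.8%). Genes of the unfolded protein response sensors and ER chaperones had a member in 4 of 22 cases, namely HSPA5, EDEM1, EIF2AK3 and HYOU1. Genes of the integrated stress response had one in 4 of 25 (SESN2, SLC7A11, GDF15 and ASNS) and AP-1 genes in 4 of 18 (JUND, ATF7, MAFK and FOS). The counts were 3 of 12 for cell death and survival (BBC3, BCL2 and XIAP), 2 of 28 for myeloid differentiation (RUNX1 and CSF1R) and 1 of 25 for inflammation (IL1RN). These counts are too small to set one list apart from another.

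The HSPA5 member, chr9:125243383-125243539, lay 2082 bp upstream of the start of HSPA5, within its divergent transcript, and held both a C/EBP-ATF and an AP-1 element. It had 13 tags in p42 DMSO, 20 in p42 tunicamycin, 17 in p30 tunicamycin and 21 in EV tunicamycin, so the unstressed p42 value was the lowest. The SESN2 member, chr1:28249524-28249723, lay between genes, 9849 bp upstream of the start, and had 16, 16, 19 and 15 tags, with no more than 4 tags between the lists. Of the listed genes, BBC3 alone had a member within 1000 bp of a start. It lay 836 bp upstream of the nearest start, measured from the summit, and had 23, 28, 15 and 21 tags, both p42 values being above the others. After scaling, the p42 DMSO value (20.6) lay below that of EV tunicamycin (21.1). The IL1RN member, chr2:113111912-113112294, had 17, 16, 10 and 8 tags, with both p42 values above both others, also after scaling.

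The other members near stress genes were lower. In the gene of the ER mannosidase-like protein EDEM1 the member had 6, 9, 8 and 6 tags, and that near EIF2AK3, which encodes PERK, had 6, 6, 5 and 8. Near HYOU1, an ER chaperone gene, the member had 11, 12, 13 and 8 tags. The member nearest to SLC7A11, which encodes a cystine transporter, had 5, 4, 7 and 7 tags, near the floor of the lists. Near GDF15, a stress cytokine gene, the member had 10, 8, 6 and 5, both p42 values being the higher ones, and that near ASNS, which encodes asparagine synthetase, had 6, 7, 4 and 6. None of these 6 held a C/EBP, C/EBP-ATF, C/EBP-AP-1 or AP-1 element.

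Among AP-1 genes, the member near JUND had 25, 19, 17 and 24 tags in the same order, that in ATF7 10, 9, 5 and 5, that near MAFK 10, 8, 9 and 8 and that near FOS 6, 8, 8 and 9. Both p42 values were above both others in ATF7 only. Near RUNX1, a transcription factor gene of blood development, the member had 6, 7, 5 and 6 tags, and the pair near CSF1R, the receptor gene of a macrophage growth factor, had 8, 8, 6 and 6 and 8, 10, 8 and 5. None of these 3 differed by more than 5 tags between the lists. Near BCL2, an anti-apoptotic gene, one member had 12, 10, 9 and 16 tags, and the other, with a C/EBP palindrome, had 7, 6, 8 and 6. The member near XIAP, which encodes a caspase inhibitor, had 6, 10, 12 and 8 tags.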

How the data were processed

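ATAC-seq libraries of KO-52 cells were measured in 6 conditions with 2 replicates each. Per the submitters' processing notes and the methods of the study, reads were trimmed by the authors (Trim Galore 0.6.6) and mapped to hg38 (Bowtie2 2.4.4), duplicates were discarded (Picard), and MACS2 called the peaks. Whether reads were shifted to the Tn5 cut site is not given in the sources used here. The deposited lists, one per condition, were called on pooled replicates. For each peak the authors give a display score, a fold enrichment (a ratio to the local background), −log10 p and −log10 q values, and the offset of the summit in bp. The score column was not used here. None of these is normalized between lists. They hold no fold change between conditions.

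Summit tags were solved from the deposited fold and −log10 p (Poisson against the local background), and came out whole for 100% of peaks (tolerance 0.002 in −log10 p). Depth was estimated from the lowest background and a genome size of 2700000000 bp, and ranged from 22250000 to 29980000 tags. It sets the lowest region that can be called and does not bear on biological variation. Peaks were merged at 1 bp. The scale between lists was the median over regions with a peak in all 6. Each region's summit was that of the highest −log10 q. Motifs were exact matches on both strands within 100 bp, genes came from GENCODE release 44, and intervals were Wilson or, for differences, Newcombe. Named are the 12 members with the highest lowest percentile over 4 lists, up to 3 members for each list gene with one within 50 kb (up to 20 in all), and sequences of the 3 highest members per element outside untranslated regions and 1 chromosome, of which 1 is not reported here. The members and lists were chosen with earlier results of these data known. The solution of summit tags, the merging of peaks with their patterns and the motif search were tested on simulated data. The other steps were not. The alternatives were stricter peaks, equal list sizes, a depth-scaled threshold, a 50% overlap, autosomes only, no DMSO peak within 500 bp, other windows, summits, distances and scalings, and a GC weighting. Python 3.11.15, numpy 2.4.6, pandas 2.3.3, scipy 1.17.1, statsmodels 0.14.6 and matplotlib 3.10.9 were used.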

Additional observations from a re-analysis of the deposited data

How the results depend on the processing

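The member count of 1698 was 791 when the 4 lists needed a −log10 q of 3 or more and 83 for 5 or more, and it stayed within 1.5 times under the other 5 definitions (1212 to 1767). Its ratio to the p30 mirror count, 2.07, was 4.15 with a −log10 q of at least 5 and 1.33 with equal list sizes, and its ratio to the EV mirror count, 3.21, was 10.4 and 1.36. Both ratios were above 1 under every definition run. The stricter −log10 q was asked only of the lists that must hold a peak, and the p42 DMSO list was the deepest. The rise to 4.15 and 10.4 is therefore not read as a stronger excess. In a window of 50 bp on each side the shares of members were 3.53% for C/EBP-ATF and 5.36% for AP-1. All other regions had 0.714% and 6.6%. For C/EBP it was 1.12% (0.718 to 1.74%), an interval that included the 0.829% of all other regions. With 200 bp the AP-1 share was 12% against 12.8%, as longer windows hold more matches and shorter ones fewer. For C/EBP-AP-1 at a −log10 q of at least 3, the interval of 1.9% (1.15 to 3.11%) included the 1.22% of other regions. In the other windows, summits and strengths tried, the member intervals for C/EBP and C/EBP-AP-1 lay above the share of the other regions. The share near a transcription start was 6.83% within 500 bp and 19.1% within 2000 bp, against 10.3% and 21% of all other regions. The median difference of p42 DMSO over p30 tunicamycin turned from 0.06 to -0.0884 on the log2 scale with depth scaling. The same median over all regions with a peak in both lists went from -0.0025 to -0.155. The members were chosen by calls in these lists, so nothing is read from their place above it. The number of list genes with a member was 13 at 20 kb and 27 at 100 kb. The C/EBP-ATF ratio over all other regions ran from 3.57 to 4.99 over the windows, summits and strengths tried.

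No paired analysis was possible because the lists were called on pooled replicates, and for the same reason no replicate was left out. No library-level spread is known. A missing peak is not detection of closed chromatin at this depth, and exact motif matches miss weaker sites.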

Other observations

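The 1698 members had 1456 nearest protein-coding genes, and 1255 of these were nearest to 1 member. The genes nearest to the most members were SRGAP2C with 5, and FUT10, NKAIN3, PRMT6, SLC7A11 and TLE4 with 4 each. As shares of all regions nearest to the same gene, these were 0.935% for SRGAP2C, 5.48% for FUT10, 3.51% for NKAIN3, 1.56% for PRMT6, 4.6% for SLC7A11 and 4.6% for TLE4, against 0.478% over all regions. SLC7A11 encodes the cystine transporter subunit induced by ATF4, and TLE4 a Groucho-type corepressor. Nearest had no distance limit. A member assigned to SRGAP2C lay 3516459 bp from its start and one assigned to TLE4 329055 bp, while the closest to SLC7A11 lay 6819 bp away. These genes were picked for their counts and were not tested.

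Of the other elements searched, PU.1 (GAGGAAGT), the element of a myeloid ETS factor, lay in 159 members (9.36%, 8.07 to 10.8%) against 6.84% of all other regions, a difference of 2.52 points (1.22 to 4) and a ratio of 1.37, or 1.28 at the members' GC content. Against the p30 and EV mirror sets the intervals of the difference included 0 (-0.603 to 3.99 and -1.29 to 4.09). RUNX (TGTGGTT) was found in 8.42% against 9.28%, the blood factor element AGATAAG in 2.71% against 3.22%, the PAR bZIP element (TTACGTAA or TTATGTAA) in 1.65% against 1.23%, the NF-kB consensus in 4.06% against 4.13%, the MiT E-box (TCACGTGA) in 0.177% against 0.196%, and the MAF-type AP-1 element (TGAGTCAGC, which contains an AP-1 match) in 0.824% against 0.651%. UPRE and ERSE, elements tied to ATF6 and XBP1, were rare, as was CRE. UPRE (TGACGTGG) lay in 7 members (0.412%, 0.2 to 0.849%) against 0.248%. CRE (TGACGTCA) was found in 0 of 1698, which allows up to 0.226% by the Wilson interval, against 0.218% elsewhere. ERSE, CCAAT and CCACG 9 bases apart, was found in 0 members against 0.0122%. The C/EBP-ATF share was 7.42% (5.54 to 9.88%) in the strongest 566 members, 4.95% in the middle 566 and 4.77% (3.3 to 6.85%) in the weakest, a split made after seeing the data. The palindrome was found in 3%, 2.65% and 2.83% of the same groups and the C/EBP-AP-1 composite in 1.94% of each.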
